A study of Danio rerio with 9 samples.

Results

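Unplaced genes are genes that the deposited count table lists by an Ensembl gene ID alone, with no chromosome, start, name or biotype. Of the 30628 genes in the table, 4721 were unplaced, and the 2323 of them with at least 10 counts in at least 3 of the 9 libraries are described here. The other 2398 did not meet this count minimum, and 682 of these were at 0 in all 9 libraries. For comparison, 18856 placed genes, which have a chromosome or a named scaffold, met the same minimum.

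RNA was sequenced from ventricles of 6-month-old zebrafish of 3 genotypes, with 3 libraries per genotype and 5 pooled ventricles per library. *Tg(cmlc2:tfeb)* transgenic fish overexpressed *tfeb* under the *cmlc2* promoter, which is active in cardiomyocytes. *mtor xu015/+* fish were heterozygous for a mutant allele of *mtor*, and the WT fish were described as corresponding siblings. The sources used here do not say to which of the lines the WT siblings belonged, and the WT columns of the table carry a 9-month tag although the labels give 6 months for every group. Both lines were therefore compared with the same 3 WT libraries, and because each library is a pool, p-values measure the spread between pools. Family and age cannot be told apart from genotype in these comparisons.

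mTOR is a kinase that promotes growth and holds back autophagy, and it keeps the transcription factor Tfeb in the cytoplasm by phosphorylation. Tfeb switches on genes of lysosomes and autophagy. A gene can lack a chromosome in an annotation table because it lies on a scaffold that was not joined to a chromosome or on an alternate version of a chromosomal region. The zebrafish assembly holds both kinds of sequence, since laboratory strains differ from each other in sequence and in gene copy number. Copies of this kind can be nearly identical, and short reads cannot always be assigned to one of them. The table names a scaffold for 232 of the placed genes that met the minimum. It does not say which of these applies to any unplaced gene below, so counts of near-identical copies are uncertain.

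None of the 2323 genes could be named. The ID of 0 matched a symbol in the reference table of gene names, whereas 23608 of the 25907 placed genes in the table did, and 0 matched the RefSeq gene table. They are therefore given by ID, without role, position or sequence. Nearly all of them, 2297 (98.9%), had IDs numbered from ENSDARG00000109000 upward, and 835 placed genes that met the minimum came from the same number range. These late-numbered placed genes are given beside the unplaced genes as a second point of comparison.

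The libraries held 35440229 to 45273885 counts each. Of the 7 genes listed as ventricular cardiomyocyte markers, 6 were found in the table (*myl7*, *tnnt2a*, *actc1a*, *cmlc1*, *ttn.2* and *tnni1b*). *vmhc* was not found, and the sum of the others was not taken to tell ventricular from other cardiomyocytes. None of the markers found for any cell type was at 0 in every library. The 6 cardiomyocyte genes summed to between 2020380 and 2427440 normalized counts in Tg(cmlc2:tfeb), 2720920 and 2953710 in mtor xu015/+ and 2719280 and 2903450 in WT. Summed smooth muscle markers (*acta2*, *tagln*, *myh11a*) lay between 2296 and 2815 normalized counts in Tg(cmlc2:tfeb), between 5636 and 6499 in mtor xu015/+ and between 5363 and 6522 in WT. By gene, the group means of *acta2* were 447, 3760 and 3455 in that order. Those of *tagln* were 1323, 1318 and 1453 and those of *myh11a* 746, 1014 and 936, so the difference lay mostly in *acta2*. Summed hemoglobin genes lay between 150303 and 195492 in Tg(cmlc2:tfeb), 67163 and 87002 in mtor xu015/+ and 107069 and 123353 in WT. Endothelial markers summed to 26970 to 28551 in Tg(cmlc2:tfeb), 23487 to 26267 in mtor xu015/+ and 23397 to 26628 in WT, and epicardial markers to 846 to 1081, 594 to 646 and 708 to 756 in the same order. Macrophage markers summed to 304 to 361 in Tg(cmlc2:tfeb), 375 to 622 in mtor xu015/+ and 473 to 858 in WT. This difference lay in *marco*, with group means of 199, 365 and 485, while those of *mpeg1.1* were 135, 140 and 141. The Tg(cmlc2:tfeb) libraries thus did not overlap with the others in any of these sums. In the endothelial list, *pecam1* departed from the rest, with group means of 1551, 1655 and 1469 in the same order. In the epicardial list *wt1b* did, with 30.3, 25.3 and 32.4, and the rest of both lists were highest in Tg(cmlc2:tfeb). Sums of atrial markers overlapped. Their genes differed in direction, with group means of 19492, 7088 and 14307 for *myh6* and 46627, 67813 and 69979 for *nppa*. The part of these shifts in the results below was not tested, and in bulk RNA fewer cells of a type cannot be told apart from less RNA per cell.

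The unplaced genes had lower counts than the placed genes. Whether gene length entered these values is not given in the sources used here, and the table holds no lengths for unplaced genes. Their median over genes of the mean normalized count was 74.6, against 249 for placed genes. Normalized counts are rounded counts brought to a common library size, so that a 0 below can stand for a fraction of a read. The highest unplaced gene, ENSDARG00000111435, had 83332, 46161 and 72677 normalized counts in Tg(cmlc2:tfeb), 80327, 75314 and 66997 in mtor xu015/+ and 79686, 71158 and 62937 in WT. The groups overlapped, and no comparison passed the test. ENSDARG00000116541 was next, with 31758, 28825 and 32459 normalized counts in Tg(cmlc2:tfeb), 32753, 26600 and 30972 in mtor xu015/+ and 29480, 28669 and 30307 in WT, again with overlapping groups. Of the 2323 genes, 1512 (65.1%) had at least 10 counts in all 9 libraries, against 87.4% of the placed genes.

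A gene was called silent in a group when each of its 3 libraries held at most 3 deposited counts, and on when each held at least 10. The columns are tagged scaledTPM, a name for abundances rescaled to library size, so that a deposited count need not be 1 read. In the table, 51.8% of the values of unplaced genes between 0.5 and 1.5 lay within 0.1 of 1, as did 73.9% of those of placed genes. Between 1.5 and 2.5, 34.6% and 61.1% lay within 0.1 of 2. Values near whole numbers were thus only part of them, and less frequent in unplaced genes. Whether the other values reflect shared reads or a unit other than 1 read was not tested. Taking 1 unit as 1 read, a count of 0 allows up to 3 counts, which corresponds to 2.56 to 3.44 normalized counts depending on the library. The lower bounds on folds given below rest on this reading and cover counting error only. Of the unplaced genes, 144 (6.20%) were silent in at least 1 group, against 107 placed genes (0.567%) and 10 late-numbered placed genes (1.20%). They comprised 71 (3.06%) that were silent in Tg(cmlc2:tfeb), 46 (1.98%) in mtor xu015/+ and 49 (2.11%) in WT. This order depended on the limit, since at most 9 counts gave 114 in Tg(cmlc2:tfeb), 91 in mtor xu015/+ and 122 in WT. Asking it of the remaining 2 libraries when 1 was left out gave 90 to 98 in Tg(cmlc2:tfeb), 69 to 78 in mtor xu015/+ and 82 to 94 in WT. Among placed genes these shares were 0.313% in Tg(cmlc2:tfeb), 0.143% in mtor xu015/+ and 0.196% in WT. No test was made of these differences. The count minimum can be met by 3 libraries of a single group, so that a gene admitted in this way had to differ between groups. This held for 51 genes admitted through Tg(cmlc2:tfeb) alone, 3 through mtor xu015/+ and 6 through WT, and the counts of silent genes are a description for that reason.

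Silent genes were most frequent at low levels, but were also found among unplaced genes with high means. With a mean under 100 normalized counts, 9.68% of unplaced genes were silent in a group, against 1.70% of placed genes. Between 100 and 1000 the shares were 1.56% and 0.0228%, and over 1000 they were 0.676% and 0%. The 1 silent gene over 1000, ENSDARG00000114059, which is named for its level and was chosen after its values were seen, had 8546, 6568 and 6021 normalized counts in Tg(cmlc2:tfeb), 0 in all 3 mtor xu015/+ libraries and 8.37, 0 and 0 in WT. It met the count minimum through Tg(cmlc2:tfeb) alone.

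**Figure D1:**
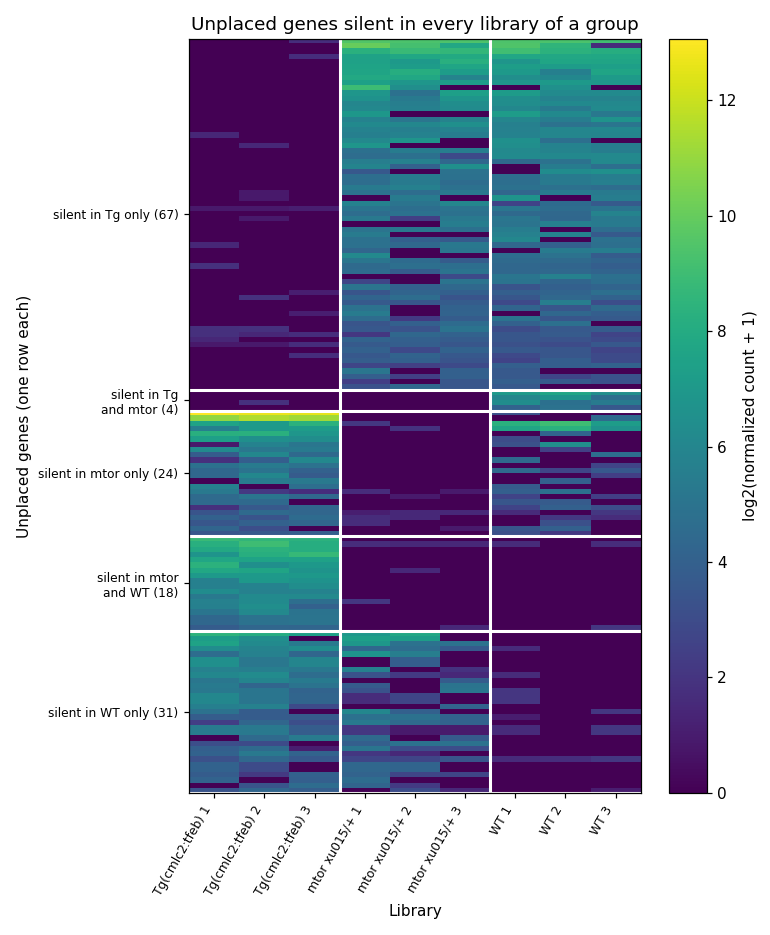
Each row is 1 of the 144 unplaced genes silent in at least 1 group, each column is a library, and the colour gives log2(normalized count + 1). Horizontal white lines separate the sets by the groups in which they were silent. The 67 genes silent only in Tg(cmlc2:tfeb) form the largest set, and the 18 silent in both mtor xu015/+ and WT were all on in Tg(cmlc2:tfeb).

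Sorted by pattern, 122 genes were silent in exactly 1 group and 22 in exactly 2. The largest set was silent only in Tg(cmlc2:tfeb) and held 67 genes, and 28 of these were on in both other groups. The sets silent only in mtor xu015/+ (24 genes) and only in WT (31 genes) held 2 and 3 genes that were on in both other groups. In the opposite pattern, 18 genes were on in Tg(cmlc2:tfeb) and silent in both other groups, 4 were on in WT alone, and 0 were on in mtor xu015/+ alone. Placed genes leaned to the same line. Among them, 23 (0.122%, against 1.21% of unplaced genes) were silent in Tg(cmlc2:tfeb) and on in both others. The same pattern with mtor xu015/+ silent held 1 placed gene, and with WT silent 0. Placed genes on in Tg(cmlc2:tfeb) and silent in both others numbered 16 (0.0849%, against 0.775%), and those on in WT alone 0. The genes on in a single group had met the count minimum through that group, and their values are given without a test. Genes silent in 1 group and on in both others were picked by the same values that the test uses. An adjusted p given for them against the silent group describes the pattern and is no separate support for it.

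Genes that were on in Tg(cmlc2:tfeb) alone were led by 5 with a mean of at least 193 normalized counts in that group. ENSDARG00000111053 had 460, 393 and 334 normalized counts in Tg(cmlc2:tfeb) and 0 in all 3 mtor xu015/+ and all 3 WT libraries. Set against the limit that 0 counts allow in a library, it was at least 120-fold higher in Tg(cmlc2:tfeb) than in WT and at least 133-fold higher than in mtor xu015/+. ENSDARG00000112356 had 235, 334 and 279 normalized counts in Tg(cmlc2:tfeb) and 0 in every other library, at least 86.1-fold higher than in WT. The 3 transgenic libraries were close to each other in both genes. ENSDARG00000112897 was as even, with 208, 192 and 179 normalized counts in Tg(cmlc2:tfeb) and 0 elsewhere, at least 58.7-fold higher than in WT. ENSDARG00000116372 varied more, with 106, 293 and 427 normalized counts in Tg(cmlc2:tfeb) and 0 elsewhere. ENSDARG00000110763 had 298, 518 and 284 normalized counts in Tg(cmlc2:tfeb), 2.21, 1.86 and 1.88 in mtor xu015/+ and 2.09, 0 and 2.18 in WT, and a few reads were thus still assigned to it in the groups called silent.

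The reverse pattern, silent in Tg(cmlc2:tfeb) and on in both other groups, held genes of similar level. ENSDARG00000113927 had 0, 0 and 2.24 normalized counts in Tg(cmlc2:tfeb), 726, 659 and 685 in mtor xu015/+ and 670, 667 and 550 in WT (adjusted p = 4.21e-07 for Tg(cmlc2:tfeb) against WT, edgeR quasi-likelihood test). ENSDARG00000112054 had 0 in all 3 Tg(cmlc2:tfeb) libraries, 309, 458 and 398 normalized counts in mtor xu015/+ and 540, 336 and 282 in WT, at least 136-fold lower in Tg(cmlc2:tfeb) than in WT (adjusted p = 8.34e-05, edgeR). Both groups without the transgene expressed these genes at overlapping levels. ENSDARG00000116522, with 0 in Tg(cmlc2:tfeb), had 187, 150 and 205 normalized counts in mtor xu015/+ and 153, 147 and 164 in WT, at least 54.3-fold lower in Tg(cmlc2:tfeb) than in WT (adjusted p = 1.27e-05, edgeR). ENSDARG00000113338 (0, 0 and 2.24 normalized counts in Tg(cmlc2:tfeb), 215, 227 and 220 in WT) and ENSDARG00000115040 (0 in Tg(cmlc2:tfeb), 112, 202 and 196 in WT) followed the same pattern. All 5 were called in each of the 6 fits without 1 library, but they had been picked by this pattern.

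Silence in mtor xu015/+ with both other groups on was seen in 2 genes. ENSDARG00000112480 had 3.32, 0 and 0 normalized counts in mtor xu015/+, 189, 136 and 322 in Tg(cmlc2:tfeb) and 315, 519 and 150 in WT. ENSDARG00000113086 had 0, 2.79 and 0 normalized counts in mtor xu015/+, 49.6, 132 and 150 in Tg(cmlc2:tfeb) and 198, 317 and 100 in WT. In both genes the on groups spread by more than 2-fold between libraries, whereas the mtor xu015/+ libraries stayed near 0.

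Silence in WT with both lines on was seen in 3 genes, all of low or uneven level. ENSDARG00000110819 had 185, 74.0 and 40.3 normalized counts in Tg(cmlc2:tfeb), 118, 29.7 and 29.1 in mtor xu015/+ and 0 in all 3 WT libraries after rounding (adjusted p = 0.00624 for Tg(cmlc2:tfeb) and 0.357 for mtor xu015/+ against WT, edgeR). ENSDARG00000110864 had 81.2, 56.6 and 80.7 normalized counts in Tg(cmlc2:tfeb), 19.9, 24.2 and 12.2 in mtor xu015/+ and 2.09, 0 and 0 in WT (adjusted p = 0.000286 and 0.174, edgeR, in the same order of lines). It also differed between the lines, and was higher in Tg(cmlc2:tfeb) than in mtor xu015/+ by 1.95 ± 0.42 on the log2 scale (SE, n = 3 each, adjusted p = 0.00931, edgeR). ENSDARG00000110772 had 13.7, 13.1 and 12.3 normalized counts in Tg(cmlc2:tfeb), 28.7, 28.8 and 16.9 in mtor xu015/+ and 1.05, 0 and 0 in WT.

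On in WT alone were 4 genes. ENSDARG00000114324, the highest of them, had 0 in all Tg(cmlc2:tfeb) and mtor xu015/+ libraries and 130, 207 and 87.2 normalized counts in WT. It was at least 49.6-fold lower in Tg(cmlc2:tfeb) and at least 47.5-fold lower in mtor xu015/+ than in WT. The lowest, ENSDARG00000111229, had 16.7, 29.9 and 10.9 normalized counts in WT and 0 elsewhere, and with its lowest WT library just above the count minimum it stood just inside the rule. ENSDARG00000110493 also stood just inside, with 10.3, 12.2 and 4.48 normalized counts in Tg(cmlc2:tfeb), 4.42, 9.29 and 7.51 in mtor xu015/+ and 1.05, 0 and 6.54 in WT. Just outside it were ENSDARG00000110674 (0, 4.35 and 2.24 in Tg(cmlc2:tfeb), 7.74, 20.4 and 9.39 in mtor xu015/+, 6.28, 11.5 and 20.7 in WT) and ENSDARG00000115001 (29.9, 13.9 and 11.2 in Tg(cmlc2:tfeb), 0, 1.86 and 1.88 in mtor xu015/+, 2.09, 3.44 and 2.18 in WT). The minimum applied to deposited counts, not to these normalized values. The deciding library held 10.05 deposited counts in ENSDARG00000110493 (mtor xu015/+ replicate 2). It held 9.99 in ENSDARG00000110674 (WT replicate 2) and 9.92 in ENSDARG00000115001 (Tg(cmlc2:tfeb) replicate 3).

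Libraries of the same genotype also disagreed with each other. A gene was called mixed in a group when 1 of its libraries held at most 3 deposited counts and another at least 10. Of the unplaced genes, 427 (18.4%) were mixed in at least 1 group, against 412 placed genes (2.18%) and 46 late-numbered placed genes (5.51%). By group, 161 (6.93%) were mixed in Tg(cmlc2:tfeb), 218 (9.38%) in mtor xu015/+ and 235 (10.1%) in WT. With these limits, mixed genes were more numerous than silent genes in every genotype, whereas with 30 counts asked of the higher library they numbered 67 in Tg(cmlc2:tfeb), 110 in mtor xu015/+ and 89 in WT. Of the 427 mixed genes, 273 were mixed in exactly 1 group, 121 in 2 and 33 in all 3. A further overlap joined both descriptions, since 50 genes were mixed in at least 1 group and silent in another. As with silence, the share fell with level, and was 29.2% of unplaced and 6.62% of placed genes with a mean under 100 normalized counts and 4.09% and 0.0456% between 100 and 1000. Of the 232 placed genes on a named scaffold, 3.45% were mixed and 1.72% silent in at least 1 group.

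**Figure D2:**
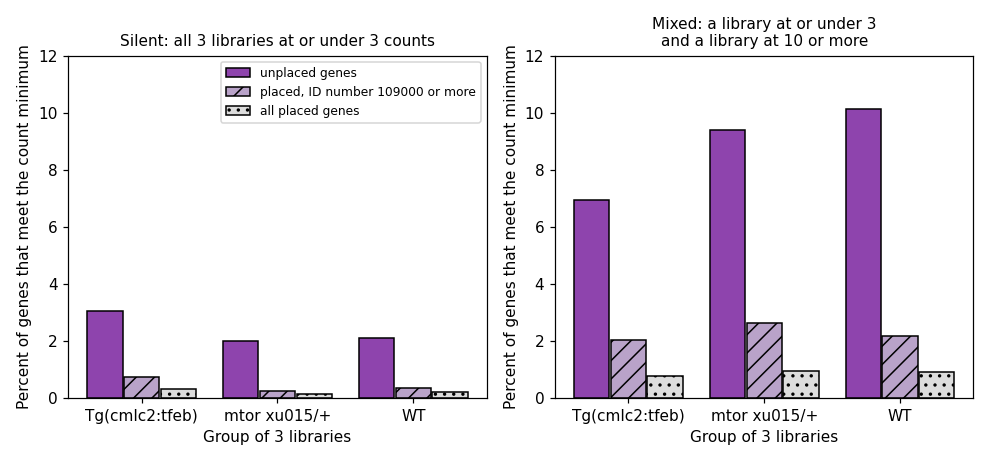
Bars give the percent of genes silent in a group (left) or mixed in it (right), for unplaced genes, placed genes from the same ID number range and all placed genes. In each genotype the unplaced genes stand highest, with 3.06% silent and 6.93% mixed in Tg(cmlc2:tfeb).

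The mixed genes with the highest single libraries held high counts in 1 pool and at most 3 deposited counts in another of the same genotype. A printed 0 is a rounded value and can stand for a fraction of a deposited count. ENSDARG00000114671 had 1478, 1150 and 0 normalized counts in Tg(cmlc2:tfeb), 5327, 0 and 0 in mtor xu015/+ and 7.33, 0 and 0 in WT. The single mtor xu015/+ library was the highest of the 9, while the others of that genotype held 1.24e-08 and 0.00172 deposited counts. No comparison passed the test. ENSDARG00000116458 had 2029, 1468 and 1746 normalized counts in Tg(cmlc2:tfeb), 962, 0 and 0 in mtor xu015/+ and 1124, 0 and 0 in WT. Every transgenic pool expressed it, but 1 library in each other group did so too, and the difference between Tg(cmlc2:tfeb) and WT was 2.21 ± 1.82 on the log2 scale (SE, n = 3 each, adjusted p = 0.42, edgeR).

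Other genes were near 0 in a single pool. ENSDARG00000115321 had 1437, 1237 and 860 normalized counts in Tg(cmlc2:tfeb), 1429, 1023 and 1219 in mtor xu015/+ and 754, 693 and 0 in WT. ENSDARG00000112620 had 76.9, 0 and 126 normalized counts in Tg(cmlc2:tfeb), 193, 122 and 106 in mtor xu015/+ and 121, 108 and 116 in WT. ENSDARG00000104934 had 465, 0 and 384 normalized counts in mtor xu015/+, with 1335, 1688 and 1132 in Tg(cmlc2:tfeb) and 356, 485 and 611 in WT. In each of these 3 genes, 8 of the 9 libraries held at least 76.9 normalized counts and 1 was at 0 after rounding. The deposited value of that library was 0.0415 in ENSDARG00000115321, 0.102 in ENSDARG00000112620 and 0 in ENSDARG00000104934.

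The same kind of split reached called genes. ENSDARG00000110447 had 0 normalized counts in all 3 libraries of Tg(cmlc2:tfeb), 1033, 593 and 224 in mtor xu015/+ and 695, 370 and 2.18 in WT. Its call for Tg(cmlc2:tfeb) against WT (adjusted p = 0.0284, edgeR) held in 1 of the 6 fits without 1 library, and its adjusted p ran between 0.0044 and 0.071. ENSDARG00000111778 had 152, 85.3 and 0 normalized counts in Tg(cmlc2:tfeb), 166, 153 and 0 in mtor xu015/+ and 0 in all WT libraries, and was not called in Tg(cmlc2:tfeb) against WT (adjusted p = 0.0901, edgeR). In each line, 1 library was without a whole read for it.

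The sets of libraries in which a gene was at or under 3 counts were also compared with the genotypes. Of the unplaced genes, 578 had a value between 3 and 10 counts in some library and were left out of this description. Among the others, 68 were silent in exactly 1 library and each of the 9 libraries was the silent one for some of them, and 37 were silent in 2 libraries that formed 15 different pairs. Silence in exactly 3 libraries was found in 52 genes in 19 different sets, of which the 3 Tg(cmlc2:tfeb) libraries accounted for 28 genes, the WT libraries for 3 and the mtor xu015/+ libraries for 2. Silence in exactly 6 libraries was found in 30 genes, and the 6 libraries of mtor xu015/+ and WT accounted for 18 of them. The sets of 1 and 2 libraries were spread over the genotypes, and the 18 genes in the last set had met the count minimum through Tg(cmlc2:tfeb) alone. Among placed genes, 23 were silent in Tg(cmlc2:tfeb) and on in both other groups. A further 16 were silent in mtor xu015/+ and WT and on in Tg(cmlc2:tfeb).

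Single libraries differed in how many unplaced genes they lacked, and the number rose from replicate 1 to replicate 3 in each genotype. At most 3 counts were found for 140, 159 and 187 of the 2323 genes in the Tg(cmlc2:tfeb) libraries, 140, 167 and 170 in the mtor xu015/+ libraries and 173, 188 and 201 in the WT libraries. Counts of at least 10 were found for 2086, 2065 and 1995 genes in Tg(cmlc2:tfeb), 2064, 2039 and 2018 in mtor xu015/+ and 1993, 1953 and 1967 in WT.

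**Figure D3:**
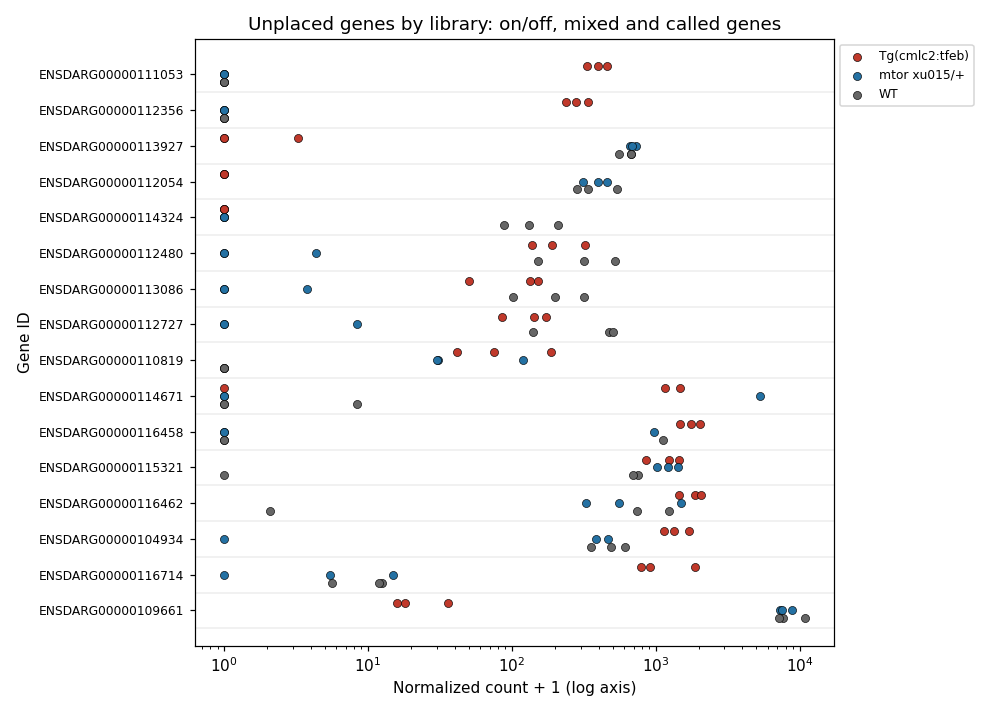
Each row is an unplaced gene, each point 1 library, and the log axis gives the normalized count + 1. The upper rows show genes on or off by genotype, the middle rows genes in which libraries of 1 genotype split between high counts and none, and the last rows called genes such as ENSDARG00000109661, with 17.1, 14.8 and 34.7 normalized counts in Tg(cmlc2:tfeb) and 7203 or more in each WT library.

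Some of the low values of mixed genes were neither 0 nor a whole read. A value above 0 and under 0.01 counts, which an estimator can give when it divides shared reads between similar transcripts, was present in 117 unplaced genes (5.04%) and 21 placed genes (0.111%). It was present in 114 of the 427 mixed genes (26.7%) and 22 of the 144 silent genes (15.3%). Without genes that had such a value, 5.53% of unplaced genes were silent in a group and 14.2% mixed, against 0.526% and 2.1% of placed genes. The part of read assignment in the on/off patterns was not tested.

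Spread between libraries of a genotype was also wider for unplaced genes than for placed genes. Over all 2323 genes, silent and mixed ones included, the median SD of log2 CPM within a group was 0.319 in Tg(cmlc2:tfeb), 0.331 in mtor xu015/+ and 0.343 in WT, against 0.164, 0.173 and 0.155 for placed genes. The late-numbered placed genes lay between, with 0.223, 0.230 and 0.216. CPM scales counts to library size, and a prior count of 2 was added. Among the genes with at least 10 counts in all 9 libraries, the median SD was 0.229 in Tg(cmlc2:tfeb), 0.255 in mtor xu015/+ and 0.253 in WT for the 1512 unplaced genes, against 0.145, 0.155 and 0.138 for placed genes. No test was made of this difference. Since SD depends on level, it was also taken by range of mean count. Over 1000 normalized counts, the median SD was 0.156, 0.162 and 0.155 for unplaced genes, against 0.106, 0.111 and 0.0927 for placed genes, in the same order of groups. For the 55 late-numbered placed genes in that range it was 0.120, 0.159 and 0.129, so in mtor xu015/+ it was close to that of unplaced genes. Their upper quartile in Tg(cmlc2:tfeb) was 0.465, against 0.286 for unplaced genes. Among genes on in a group, the highest library was at least 4 times the lowest in 63 unplaced genes in Tg(cmlc2:tfeb) (3.37%), 63 in mtor xu015/+ (3.45%) and 61 in WT (3.52%), against 0.776%, 0.584% and 0.465% of placed genes.

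**Figure D4:**
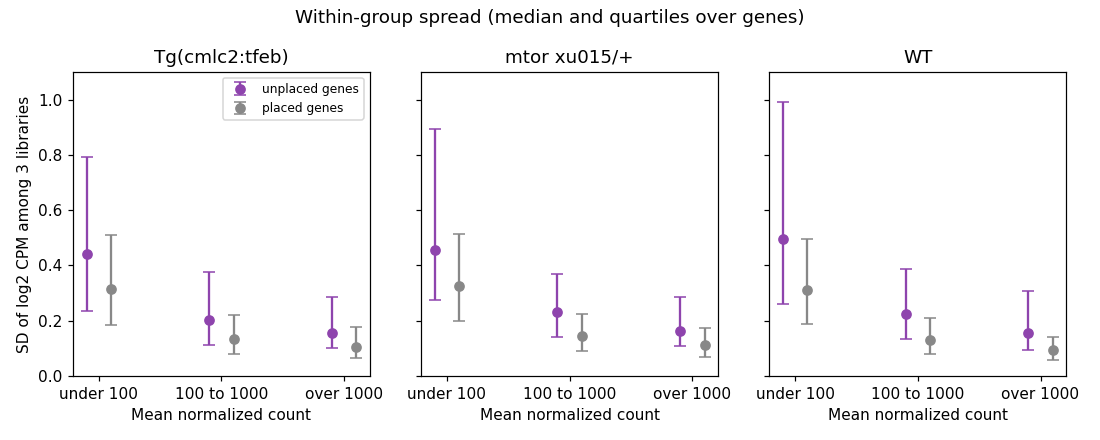
Points give the median, and bars the quartiles over genes, of the SD of log2 CPM among the 3 libraries of a group, by range of mean normalized count. In each genotype and range the median of the unplaced genes lies above that of the placed genes, for example at 0.156 against 0.106 over 1000 normalized counts in Tg(cmlc2:tfeb).

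The comparison of Tg(cmlc2:tfeb) with WT asks which unplaced genes differed between the transgenic line and WT. A gene was called at an adjusted p under 0.05 (quasi-likelihood test of edgeR, Benjamini-Hochberg method over all genes) and a 1.5-fold difference or more, and 2312 of the 2323 genes were tested among 21216 genes. Of these, 566 (24.5%) were called, against 14.9% of all genes tested and 18.1% of the late-numbered placed genes tested. They divided into 331 higher in Tg(cmlc2:tfeb) (14.3%, against 7.41% of all genes) and 235 lower (10.2%, against 7.49%). Part of the calls were the on/off genes above, since 58 of the called genes were silent in Tg(cmlc2:tfeb) and 39 in WT, but 350 were on in both groups. The changes were at least 4-fold in 229 of the called unplaced genes (40.5%), against 26.6% of all called genes. The 51 unplaced genes admitted through Tg(cmlc2:tfeb) alone, which had to differ, were not left out of these counts. Called unplaced genes with a log2 change of at least 5 numbered 1 among those with 10 counts in all 9 libraries. Among the others they numbered 100, and for placed genes the numbers were 2 and 52.

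Calls in genes expressed in every library do not depend on silence. Among the 1512 unplaced genes with at least 10 counts in all 9 libraries, 345 (22.8%) were called for Tg(cmlc2:tfeb) against WT, with 223 higher and 122 lower. Among placed genes of the same kind, 2002 of 16471 (12.2%) were called, with 931 higher and 1071 lower. Among the other tested genes that met the minimum, 27.6% of unplaced and 25.1% of placed genes were called. Without 1 library in turn, 342 of the 566 calls were made in each of 6 fits, and the number of unplaced genes called was at least 407 under each alternative.

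Among genes silent in no group, those lower in the transgenic line included near-complete losses. ENSDARG00000109661 had 17.1, 14.8 and 34.7 normalized counts in Tg(cmlc2:tfeb), 7255, 7513 and 8817 in mtor xu015/+ and 10806, 7594 and 7203 in WT. It was lower in Tg(cmlc2:tfeb) than in WT with a log2 fold change of -8.63 ± 0.31 (SE, n = 3 each, adjusted p = 4.82e-07, edgeR), and the groups were far apart. ENSDARG00000110768 had 3.42, 6.97 and 3.36 normalized counts in Tg(cmlc2:tfeb), 591, 525 and 443 in mtor xu015/+ and 441, 486 and 446 in WT, a log2 fold change against WT of -6.58 ± 0.22 (adjusted p = 3.69e-07, edgeR). ENSDARG00000110232 behaved alike, with 2.56, 8.71 and 5.60 normalized counts in Tg(cmlc2:tfeb) and 672, 845 and 896 in WT. In all 3 genes the transgenic libraries kept a few counts each.

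Other losses were partial and even among libraries. ENSDARG00000109507 had 162, 132 and 180 normalized counts in Tg(cmlc2:tfeb), 908, 802 and 855 in mtor xu015/+ and 933, 815 and 842 in WT, with a log2 fold change against WT of -2.45 ± 0.12 (adjusted p = 5.03e-06, edgeR). ENSDARG00000113948 had 1865, 1468 and 1758 normalized counts in Tg(cmlc2:tfeb), 9255, 9332 and 9127 in mtor xu015/+ and 7388, 7609 and 6353 in WT, with a log2 fold change against WT of -2.07 ± 0.11 (adjusted p = 7.57e-06, edgeR). Its mtor xu015/+ libraries lay above those of WT without overlap, but that difference did not pass the test (adjusted p = 0.485, edgeR).

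Genes higher in the transgenic line ranged from partial to nearly complete contrasts. ENSDARG00000116714 had 784, 904 and 1875 normalized counts in Tg(cmlc2:tfeb), 4.42, 13.9 and 0 in mtor xu015/+ and 11.5, 4.59 and 10.9 in WT, with a log2 fold change against WT of 7.01 ± 0.59 (adjusted p = 0.000128, edgeR). ENSDARG00000113077 had 265, 243 and 298 normalized counts in Tg(cmlc2:tfeb), 38.7, 28.8 and 39.4 in mtor xu015/+ and 39.8, 24.1 and 22.9 in WT (log2 fold change against WT 3.20 ± 0.23, adjusted p = 4.94e-05, edgeR). In both genes the Tg(cmlc2:tfeb) libraries lay above all others. ENSDARG00000115893 had 519, 516 and 519 normalized counts in Tg(cmlc2:tfeb), 254, 224 and 265 in mtor xu015/+ and 201, 175 and 182 in WT, a log2 fold change against WT of 1.48 ± 0.10 (adjusted p = 2.96e-05, edgeR). ENSDARG00000110889 (1.41 ± 0.13) and ENSDARG00000115867 (1.89 ± 0.20) changed by a similar log2 amount against WT (adjusted p = 0.000156 and 0.000364, edgeR).

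Among the 10 unplaced genes with the highest mean, 3 differed between Tg(cmlc2:tfeb) and WT by adjusted p but by less than 1.5-fold. ENSDARG00000109247 had 19902, 22216 and 23800 normalized counts in Tg(cmlc2:tfeb), 20950, 23812 and 20299 in mtor xu015/+ and 14289, 13702 and 16722 in WT. The log2 fold change against WT was 0.56 ± 0.11 in Tg(cmlc2:tfeb) (adjusted p = 0.00592, edgeR) and 0.54 ± 0.11 in mtor xu015/+ (adjusted p = 0.263, edgeR). Both lines thus lay above WT in this gene. ENSDARG00000115128 had 27927, 26753 and 27588 normalized counts in Tg(cmlc2:tfeb), 23111, 19057 and 23004.5 in mtor xu015/+ and 20816, 19860 and 18219 in WT (Tg(cmlc2:tfeb) against WT 0.48 ± 0.09 on the log2 scale, adjusted p = 0.006, edgeR). ENSDARG00000115132 had 11901, 10924 and 11960 normalized counts in Tg(cmlc2:tfeb), 16106, 16141 and 15946 in mtor xu015/+ and 16217, 16150 and 13960 in WT (Tg(cmlc2:tfeb) against WT -0.41 ± 0.08 on the log2 scale, adjusted p = 0.00637, edgeR). Tg(cmlc2:tfeb) and WT did not overlap in any of the 3.

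The comparison of mtor xu015/+ with WT gave 4 calls among the 2312 unplaced genes tested (0.173%), against 0.0236% of all genes. There was 1 higher call (0.0433%, against 0.00943% of all genes) and 3 lower calls (0.13%, against 0.0141%). DESeq2 gave 35 calls, of which 24 were higher, among 71 calls over all genes, so that neither the count nor its balance of direction held across tools. At an unadjusted p under 0.05, 297 unplaced genes passed (12.8%), against 7.86% of all genes. The lower calls were ENSDARG00000112480 and ENSDARG00000113086, described above, and ENSDARG00000112727, which had 0, 7.43 and 0 normalized counts in mtor xu015/+, 83.8, 141 and 173 in Tg(cmlc2:tfeb) and 468, 501 and 138 in WT. The higher call was ENSDARG00000110772, the only unplaced gene called against WT in both lines. Each of the 4 had an adjusted p of 0.0473 (edgeR), just under the threshold, and each had at most 3 counts in at least 1 library. None was stable, since 3 of the 4 calls were made in 1 of the 6 fits without 1 library, that without WT replicate 3, and ENSDARG00000110772 in 0 of them, with adjusted p between 0.11 and 0.26.

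The comparison of Tg(cmlc2:tfeb) with mtor xu015/+ gave 535 calls (23.1%), against 16.0% of all genes and 20.8% of the late-numbered placed genes tested. They divided into 260 higher in Tg(cmlc2:tfeb) (11.2%, against 8.09% of all genes) and 275 lower (11.9%, against 7.95%). As the same transgenic libraries entered both comparisons, 406 genes were called in both, 160 against WT only and 129 against mtor xu015/+ only. Among genes with at least 10 counts in all 9 libraries, 331 unplaced (21.9%) and 2239 placed genes (13.6%) were called. Among the other tested genes that met the minimum, 204 unplaced (25.5%) and 621 placed genes (26.6%) were called, so the excess was not seen there. ENSDARG00000112880 had 6476, 5866 and 8626 normalized counts in Tg(cmlc2:tfeb), 1138, 1554 and 923 in mtor xu015/+ and 1810, 1749 and 2287 in WT. It was higher in Tg(cmlc2:tfeb) by 2.54 ± 0.22 against mtor xu015/+ and 1.84 ± 0.21 against WT on the log2 scale (adjusted p = 0.000119 and 0.000491, edgeR). ENSDARG00000111199 had 413, 554 and 490 normalized counts in Tg(cmlc2:tfeb), 65.2, 40.9 and 53.5 in mtor xu015/+ and 84.8, 134 and 62.2 in WT. ENSDARG00000109218 had 133, 117 and 128 normalized counts in Tg(cmlc2:tfeb), 24.3, 29.7 and 22.5 in mtor xu015/+ and 48.2, 49.4 and 48.0 in WT. In each of these 3 genes the Tg(cmlc2:tfeb) libraries lay above all others, and in ENSDARG00000109218 the mtor xu015/+ libraries also lay below those of WT, a difference that did not pass the test (adjusted p = 0.263, edgeR).

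The unplaced genes as a whole stood lowest in WT. Their share of all counts in a library was 2.70%, 2.61% and 2.52% in Tg(cmlc2:tfeb), 2.52%, 2.30% and 2.27% in mtor xu015/+ and 2.19%, 2.13% and 2.06% in WT. Neither line overlapped with WT, while the lines nearly touched each other. Without the 10 highest unplaced genes WT was again lowest, but the lines overlapped with each other (1.98%, 1.96% and 1.82% in Tg(cmlc2:tfeb), 1.83%, 1.69% and 1.62% in mtor xu015/+, 1.56%, 1.54% and 1.51% in WT). The median normalized count over unplaced genes was 77.8, 74.9 and 71.7 in Tg(cmlc2:tfeb), 79.6, 73.4 and 69.5 in mtor xu015/+ and 69.1, 65.4 and 63.2 in WT. Here the lines overlapped with each other, and the lowest library of mtor xu015/+ lay just above the highest of WT. In each genotype, both the share and this median fell from replicate 1 to replicate 3.

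The same shift was seen gene by gene. The median log2 fold change of the tested unplaced genes was 0.21 for Tg(cmlc2:tfeb) against WT and 0.14 for mtor xu015/+ against WT, comparisons that share the WT libraries, and 0.00 for Tg(cmlc2:tfeb) against mtor xu015/+. The median of all tested genes was 0.00 in each comparison. Values above 0 were found for 1400 of 2312 unplaced genes (60.6%) for Tg(cmlc2:tfeb) and 1521 (65.8%) for mtor xu015/+. WT had the lowest of the 3 group means in 1006 unplaced genes (43.5%), against 4781 placed genes (25.4%) and 206 late-numbered placed genes (24.8%). Leaving out 1 library at a time kept the median between 0.18 and 0.23 for Tg(cmlc2:tfeb) and between 0.10 and 0.18 for mtor xu015/+. No test was made of the shift.

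**Figure D5:**
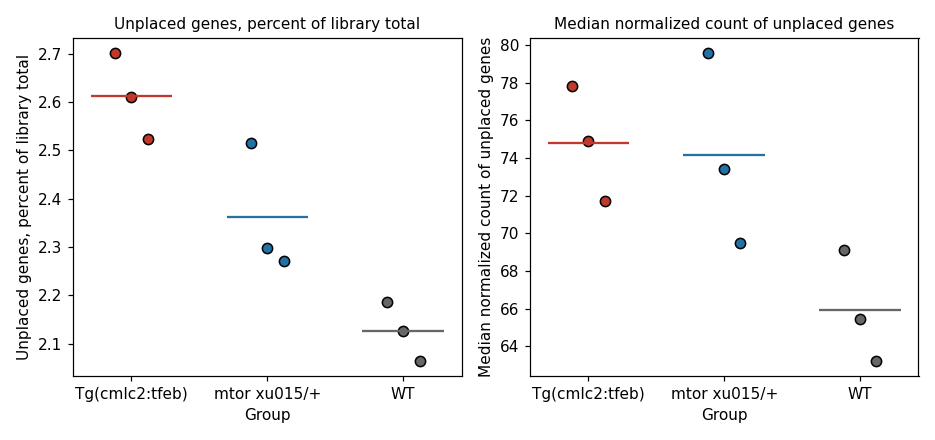
Each point is a library and each line the mean of its group, for the percent of the library's counts that fell on unplaced genes (left) and the median normalized count over the 2323 unplaced genes (right). Neither axis starts at 0. The WT libraries lie lowest in both panels, at 2.19% or less of counts and at medians of 69.1 or less.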

How the data were processed

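Reads were made and assigned by the authors. The submitters' processing notes name bcl2fastq 2.17, Trimmomatic 0.36, STAR 2.5.2b and the build GRCz11, whereas the paper's methods name TopHat and Cufflinks, and the tool that made the table is not given in the sources used here. The deposited values were taken for the authors' expected counts per gene. They are not whole numbers, and their 9 columns, matched to samples by name, are tagged scaledTPM (abundances rescaled to library size). How they were made, and whether gene length entered, is not given in the sources used here.

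The expected counts were rounded and fitted with all 9 libraries in edgeR 4.0.16 (R 4.3.3, quasi-likelihood test, TMM, filterByExpr), with two-sided p-values adjusted by the Benjamini-Hochberg method over 21216 genes. The SE printed with a log2 fold change was derived from the test. It is the absolute log2 fold change divided by the square root of the quasi-likelihood F statistic. The study's thresholds, an adjusted p under 0.05 and 1.5-fold, were kept, while its test needs alignments and was not run. Silent, on and mixed genes were counted on the values as deposited. Depth ran between 35440229 and 45273885 counts. Counting error weighs more the lower the count, and 1343 of the 2323 unplaced genes had a mean under 100 normalized counts (median 32.0). Its part in the spread between libraries was not tested.

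Genes are given by ID by rule. They are the 10 with the highest mean, up to 5 per on/off pattern, 5 mixed per group by the highest library, 5 called higher and 5 called lower per comparison by p-value among genes silent in no group, those called in both lines, and 2 on each side of the count minimum. Not all that the rule selects are printed. A part of the rule for named families and the planned search for placed genes of the same name could not be applied, since no unplaced gene had a name. Members and lists were chosen with earlier results of these data known. Alternatives were other normalizations, filters, limits and thresholds, DESeq2 1.42.0, a replicate block and leaving out each library. No column was left unmapped.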

Additional observations from a re-analysis of the deposited data

How the results depend on the processing

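For Tg(cmlc2:tfeb) against WT, 407 to 635 unplaced genes were called over all alternatives, and for Tg(cmlc2:tfeb) against mtor xu015/+, 438 to 611, all within 1.5 times of the values above. The 4 calls for mtor xu015/+ against WT became 7 with no filter on low counts (9 over all genes) and 35 with DESeq2 (24 of them higher, 71 over all genes). They became 0 with only the 2 groups compared and 0 to 5 without 1 library in turn. With a replicate block in edgeR they became 0, with 311 unplaced genes at an unadjusted p under 0.05, and the block gave 525 calls for Tg(cmlc2:tfeb) against WT and 517 against mtor xu015/+. Over all tested genes, same-numbered libraries deviated together little (correlations between -0.024 and 0.089), so the numbers were not taken to pair the libraries. Among the unplaced genes, however, the share of counts and the median normalized count fell from replicate 1 to replicate 3 in each genotype. Whether the replicate number stands for a shared batch is not given in the sources used here. Silent genes numbered 114 in Tg(cmlc2:tfeb), 91 in mtor xu015/+ and 122 in WT with a limit of 9 counts. Without 1 library, where only 2 need to be silent, they numbered 90 to 98 in Tg(cmlc2:tfeb), 69 to 78 in mtor xu015/+ and 82 to 94 in WT. Mixed genes numbered 67 in Tg(cmlc2:tfeb), 110 in mtor xu015/+ and 89 in WT when 1 library had to reach 30 counts, and 88, 135 and 148 in the same order when 1 had to be exactly 0, an alternative chosen after seeing the data, as were those for the median log2 fold change. A minimum of 10 counts in all 9 libraries kept 1512 genes. The cause of these shifts was not tested beyond the stricter or looser limits themselves. Genes under about 10 counts are limited by depth, and near-identical copies by read assignment.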
